A study of Mus musculus with 18 samples.

Results

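The genes of the voltage-gated sodium and calcium channels, the HCN channels and the TRP channels of the C, M and V subfamilies were examined in the mouse hippocampus. They were taken by gene symbol from all 18 libraries, and 47 of the 15329 listed genes matched. The matches comprised 7 sodium channel alpha subunits, 4 sodium channel beta subunits, 9 pore subunits and 8 auxiliary subunits of calcium channels, 4 HCN channels, 6 TRPC, 5 TRPM and 3 TRPV channels. The last match, Trpc4ap, encodes a protein associated with TRPC4 and not a channel. Matching genes outside the listed rows were not analysed here.

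All mice were C57BL/6J and 8 to 10 weeks old, and carried either the wild-type Ccny gene (WT) or a Ccny knockout (KO). Ccny encodes cyclin Y. WT_Basal and KO_Basal mice had no training, WT_OL and KO_OL mice went through original learning of a hidden platform in the Morris water maze, and WT_RL and KO_RL mice went through original and then reversal learning, in which the platform was moved. Each group had 3 mice and each mouse gave 1 library of hippocampal mRNA. The labels name no group that swam without a learning task, so learning and other effects of the maze cannot be told apart. Values are read counts scaled to library size (CPM), normalized by the authors and deposited as log2(CPM + 1). A log2 difference below is a difference between group means on that scale, which understates the change of genes at a few CPM.

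Sodium channels open during the rising phase of the action potential, and their beta subunits adjust gating and place the channels in the membrane. Calcium channels pass calcium upon depolarization: the Cav2 pores drive transmitter release, the Cav1 pores couple activity to transcription, the Cav3 pores open near rest, and the alpha2delta and beta subunits carry the pores to the membrane. HCN channels open upon hyperpolarization and set dendritic integration in pyramidal neurons, and TRP channels pass cations in response to lipids, heat, oxidative stress or osmotic load.

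In the 4 comparisons of trained with untrained mice, 15 of the 47 genes passed an adjusted p of 0.05 at least once (10 higher and 5 lower), and the other 32 never did. How many of all genes passed at least once, or in 3 or more, was not counted. In single comparisons 3.88% to 11.6% of all genes were higher and 5.62% to 12.3% lower. The share of members called was near that of all genes in each. Hcn2 was higher and Cacnb4, which encodes a calcium channel beta subunit, was lower in all 4. Scn2b, Cacna1a, Trpm2 and Trpc4ap were higher in 3 of 4. No member passed that threshold between WT and KO mice when libraries were weighted equally. Promoter bases of Hcn2, Scn2b and Trpm2, chosen after their values were seen, are shown because these channel genes were raised in at least 3 comparisons and differ in base composition. They are RefSeq windows on GRCm38.p6 before the annotated start, limited to bases that no exon of GENCODE M21 covers, and 35 of the 47 members had a window in the table used. Capitals mark matches, on either strand, to TGACG (the core of the cAMP response element), TGACGTCA (the full element), TGANTCA (AP-1), CACGTG (E-box), GCGNGGGCG (EGR) or GGGCGG (GC box).
Hcn2, chr10:79716384-79716633, plus strand: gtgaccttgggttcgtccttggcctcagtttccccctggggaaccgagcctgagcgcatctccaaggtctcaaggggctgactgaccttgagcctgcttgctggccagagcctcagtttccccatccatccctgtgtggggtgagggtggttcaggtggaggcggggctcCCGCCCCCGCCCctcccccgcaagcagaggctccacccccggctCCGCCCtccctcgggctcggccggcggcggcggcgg
Scn2b, chr9:45117626-45117781, plus strand: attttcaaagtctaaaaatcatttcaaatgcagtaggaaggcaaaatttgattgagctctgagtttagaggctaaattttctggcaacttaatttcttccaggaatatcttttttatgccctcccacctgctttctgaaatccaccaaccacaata
Trpm2, chr10:77969873-77970122, minus strand: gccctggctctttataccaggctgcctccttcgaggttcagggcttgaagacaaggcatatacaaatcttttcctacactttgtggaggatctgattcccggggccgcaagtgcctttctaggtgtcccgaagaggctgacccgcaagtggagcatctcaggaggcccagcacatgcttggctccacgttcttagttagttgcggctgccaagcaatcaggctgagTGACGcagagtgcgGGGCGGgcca
The Hcn2 window was 70.4% G or C with 16 CG pairs, and held 3 GC boxes and 1 overlapping EGR match. The Trpm2 window was 56.8% G or C with 10 CG pairs, 1 GC box and 1 TGACG core. The Scn2b window, 156 bases long, was 35.3% G or C with 0 CG pairs and 0 matches. Over the whole 250 bases before the start, exons included, of all 32851 windows in the table, 32.7% held a GC box, 4.70% an EGR match and 17.8% a TGACG core, and a match is a description of the letters only.

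Members differed widely in level in untrained WT mice. Per kilobase of the longest annotated transcript, Cacna1s, the pore of skeletal muscle, stood at 0.126 ± 0.0351 CPM (SD, n = 3). Among sodium channel alpha subunits, Scn2a1 (listed as Scn2a in newer annotation) stood at 41.8 ± 1.57 CPM per kb, Scn8a at 33.7 ± 3.17, Scn1a at 15.5 ± 0.179 and Scn3a at 6.63 ± 0.618. Scn2a1 and Scn8a encode the main channels of the axon initial segment in excitatory neurons, and Scn1a that of fast-spiking interneurons. The peripheral gene Scn9a stood at 0.249 ± 0.0559 CPM per kb. The beta subunits Scn3b and Scn2b stood at 72.2 ± 7.20 and 55.1 ± 3.61 CPM per kb, and Scn4b had 16.7 ± 9.52.

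For calcium channels, the Cav2 pores Cacna1e, Cacna1a and Cacna1b stood at 16.7 ± 2.16, 13.3 ± 1.41 and 11.9 ± 0.940 CPM per kb, the Cav3 pores Cacna1h, Cacna1i and Cacna1g at 12.5 ± 1.42, 7.24 ± 0.464 and 5.39 ± 0.875, and the Cav1 pores Cacna1c and Cacna1d at 7.91 ± 0.855 and 5.36 ± 0.481. Per kb of the longest transcript the beta subunits were ordered Cacnb3 (70.2 ± 7.18 CPM per kb), Cacnb1 (34.1 ± 1.89), Cacnb4 (24.6 ± 2.41) and Cacnb2 (12.2 ± 0.745). By CPM alone Cacnb4 (203 ± 19.8) and Cacnb3 (192 ± 19.6) lay within their spread, above Cacnb1 (116 ± 6.42). The order thus depends on the length used, and which transcript these mice make was not determined. Of the alpha2delta subunits, Cacna2d3 (34.9 ± 0.818) and Cacna2d1 (34.0 ± 2.06) did not differ beyond their spread per kb, and Cacna2d2 (5.76 ± 0.907) and Cacna2d4 (0.410 ± 0.0951) were lower. By CPM alone Cacna2d1 (253 ± 15.3) stood above Cacna2d3 (129 ± 3.02). Of the HCN genes, Hcn2 stood at 26.4 ± 1.49, Hcn3 at 2.17 ± 0.127 and Hcn4 at 0.215 ± 0.0296. The highest means of the TRP subfamilies were those of Trpc4 (14.03 ± 1.72), Trpm3 (9.79 ± 2.99) and Trpv2 (3.80 ± 0.396), and Trpm7 (8.97 ± 0.597) lay within the spread of Trpm3. The other TRPV genes were Trpv4 (2.12 ± 1.21) and Trpv6 (0.302 ± 0.0714).

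**Figure D1:**
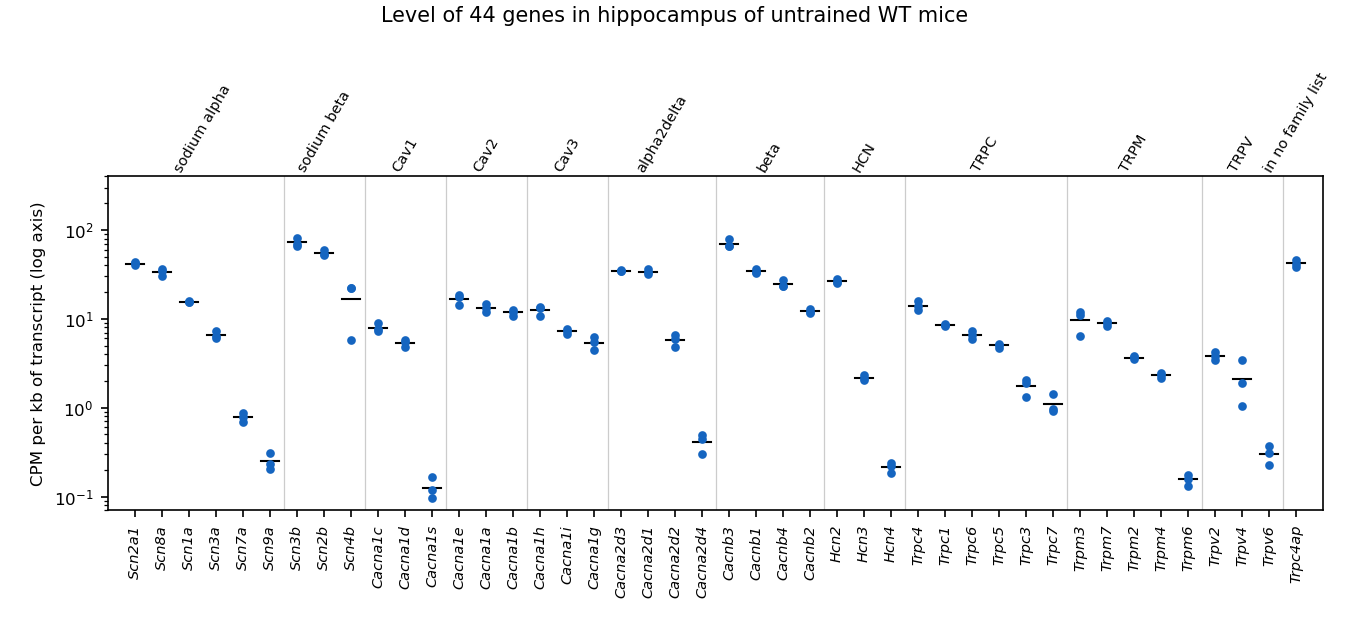
Level of 44 of the 47 genes in the 3 WT_Basal mice, in CPM per kilobase of transcript on a log axis, grouped by family. Points are mice and lines are means; the means run from 0.126 for Cacna1s to 72.2 for Scn3b, and the pair of libraries at the top for Scn4b lie far above the other one.

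Between 29248557 and 37915576 reads per library fell on listed genes, so 1 read was 0.0274 to 0.0333 CPM and the members had between 13 reads (Trpv6) and 17710 reads (Scn8a) in a library. The untrained libraries had 29248557 to 31509208 reads and the trained ones 31830344 to 37915576, without overlap. Depth thus ran with training, and its part in the differences below was not tested. The hippocampal identity of the tissue was checked by marker sums: 9 genes of CA pyramidal neurons summed to 839 to 1296 CPM and 8 genes of dentate granule neurons to 280 to 629 CPM in every library. Sums of 16 choroid plexus markers ran from 254 to 13046 CPM. The targeted gene Ccny lay at 107 to 158 CPM in 9 WT mice and at 74.0 to 95.8 CPM in 9 KO mice, a log2 difference of -0.72 ± 0.0612 (SE; adjusted p = 3.31e-05). Ccny reads thus remained in KO mice at a median of 78.6 CPM, against 148 CPM in WT mice, and which part of the gene the knockout lacks is not given in the sources used here. WT_OL replicate 2 stood apart: it was the lowest of the 18 libraries for 24 of the 47 members, whose median deviation from their means was -0.35, and -0.68 for the 25 members that span at least 100 kb. In the other libraries the median deviation over members lay between -0.0912 and 0.160.

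Original learning in WT mice was followed by 1 higher and 3 lower members, against 3.88% of all genes higher and 5.62% lower. In KO mice original learning gave 9 higher and 2 lower members, where 11.2% of all genes were higher and 12.3% lower. After reversal learning, 5 members were higher and 1 lower in WT mice (8.28% and 7.42% of all genes), and 9 were higher and 2 lower in KO mice (11.6% and 12% of all genes). The share of members called, 8.51%, 23.4%, 12.8% and 23.4% in this order, was thus near that of all genes in each comparison, with more members higher than lower in 3 of the 4. The median log2 difference of the 47 members was in the same order -0.17, 0.16, 0.026 and 0.10, and that of all genes ran from -0.0073 to 0.0015. In this order, the groups did not overlap for 21.3%, 48.9%, 31.9% and 36.2% of members and 28.3%, 48.8%, 34.3% and 45.3% of all genes.

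**Figure D2:**
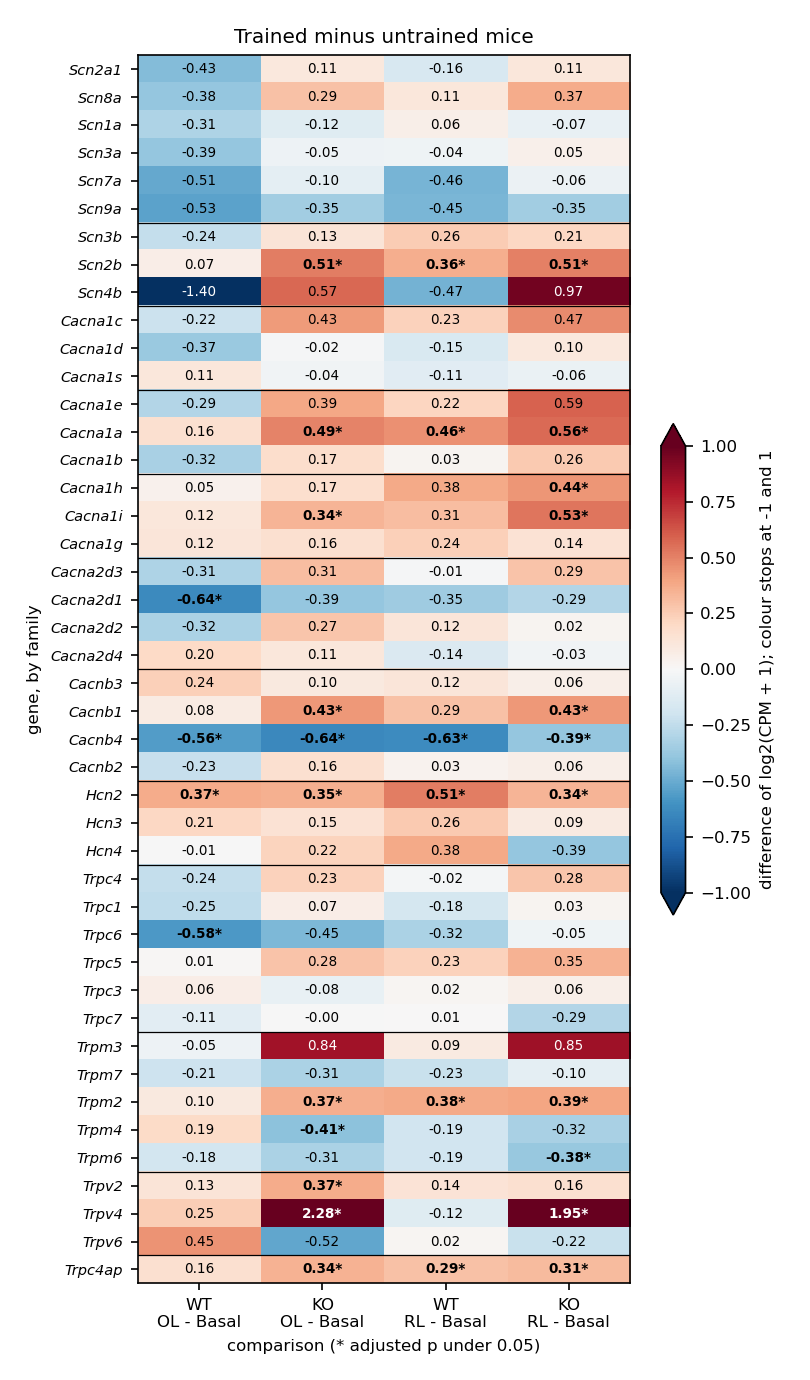
Differences of log2(CPM + 1) between trained and untrained mice for 44 of the 47 genes (rows, by family) in 4 comparisons (columns); an asterisk marks an adjusted p under 0.05 over all 15329 genes. Cacnb4 is lower and Hcn2 higher in every column, and the sodium channel alpha subunits at the top have no asterisk.

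Cacnb4 encodes the beta subunit that is mutated in the lethargic mouse and lies at chr2:52428320-52676831 on the minus strand of GRCm38. Its CPM was 191, 191 and 225 in WT_Basal mice and 178, 186 and 204 in KO_Basal mice. After original learning it was 152, 119 and 143 in WT_OL and 109, 135 and 118 in KO_OL. After reversal learning it was 141, 119 and 132 in WT_RL and 127, 166 and 141 in KO_RL. All 12 trained mice, at 109 to 166 CPM, lay below all 6 untrained mice, at 178 to 225 CPM. How many of all genes split in this way was not counted. Within each comparison taken singly, the groups did not overlap for 28.3% to 48.8% of all genes. The log2 difference was -0.56 ± 0.116 after original learning in WT mice (SE; adjusted p = 0.00769) and -0.64 in KO mice (adjusted p = 0.00107). After reversal learning it was -0.63 in WT mice (adjusted p = 0.00226) and -0.39 in KO mice (adjusted p = 0.0234). The KO_RL call was lost without KO_Basal replicate 2 (adjusted p = 0.0553) or 3 (0.0799), and without KO_RL replicate 1 (0.106) or 3 (0.0724). The bulk tissue does not tell fewer cells of a type from less RNA per cell, here or for any other member. Markers of astrocytes, 9 genes that were all detected, summed to 4462 to 4905 CPM in the 6 untrained mice and 5142 to 6867 CPM in the 12 trained mice. This is the same split of mice without overlap as for Cacnb4 and Hcn2, and its part in their differences was not tested. The sums for oligodendrocyte lineage, microglia, interneurons, vascular cells and thalamic neurons overlapped between untrained and trained mice. Exons of Cacnb4, Cacnb1, Cacnb2, Cacna1a, Cacna1d, Cacna1h, Cacna1s, Cacna2d2, Hcn3, Trpc4ap, Trpm3 and Scn9a overlap a gene on the other strand. Those of Trpm2 overlap genes on the same strand, and whether reads were counted by strand is not given in the sources used here.

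The other calcium channel beta subunits did not follow Cacnb4. Cacnb1 was higher in KO_OL (log2 difference 0.43 ± 0.101, adjusted p = 0.00583) and KO_RL (0.43, adjusted p = 0.00573), with 110 to 123 CPM in 6 untrained mice and 103 to 162 CPM in 12 trained mice. As deposited, Cacnb2 and Cacnb3 were not called in any of the 4 comparisons, with log2 differences of -0.23 to 0.16 and 0.057 to 0.24. Within a library, the ratio of Cacnb4 to Cacnb1 CPM was 1.56 to 1.97 in the untrained mice and 0.674 to 1.22 in the trained mice, without overlap. This ratio was chosen after its values were seen and was not tested.

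Of the pore subunits, Cacna1a, the P/Q-type Cav2 channel of presynaptic terminals, was 105, 117 and 94.5 CPM in WT_Basal and 90.3, 101 and 113 CPM in KO_Basal. It reached 149, 136 and 142 CPM in KO_OL, 158, 128 and 150 CPM in WT_RL and 139, 157 and 154 CPM in KO_RL. WT_OL mice, at 116, 97.8 and 144 CPM, overlapped the untrained mice. The other trained groups did not overlap their controls, which held for 34.3% to 48.8% of all genes in these comparisons. The log2 difference was 0.49 in KO_OL (adjusted p = 0.00907), 0.46 in WT_RL (0.0208) and 0.56 ± 0.124 in KO_RL (0.00415). Without WT_Basal replicate 1 or 3 or WT_RL replicate 1 the WT_RL value ran from 0.38 to 0.46 with an adjusted p of 0.0635 to 0.0981, and without KO_Basal replicate 1 the KO_OL value was 0.41 with an adjusted p of 0.0523. Its Cav2 relatives Cacna1b and Cacna1e were not called.

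Among the low-threshold Cav3 pores, Cacna1i was 66.9, 74.6 and 73.1 CPM in KO_Basal, 84.3, 96.3 and 91.8 CPM in KO_OL and 93.1, 107 and 112 CPM in KO_RL. Both trained KO groups lay above the untrained KO mice, by 0.34 ± 0.117 (adjusted p = 0.0449) and 0.53 (adjusted p = 0.00404). The groups did not overlap, in either direction, for 48.8% and 45.3% of all genes in these comparisons. The KO_OL call was lost without any 1 of its 6 libraries (adjusted p 0.0579 to 0.151). Cacna1h was called in KO_RL (0.44 ± 0.152, adjusted p = 0.0463), but its groups overlapped at 87.2 to 123 CPM before and 120 to 151 CPM after training. Without KO_Basal replicate 1 or 2 or KO_RL replicate 2 or 3 its adjusted p was 0.101 to 0.190. In WT mice Cacna1h and Cacna1i differed by 0.38 and 0.31 after reversal learning, with no call. The Cav1 pores were not called.

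Cacna2d1, an alpha2delta subunit that binds gabapentin, was 250, 269 and 238 CPM in WT_Basal and 181, 108 and 217 CPM in WT_OL, a log2 difference of -0.64 ± 0.192 (adjusted p = 0.0468). The lowest value, 108 CPM, was that of WT_OL replicate 2, without which the difference was -0.35 with an adjusted p of 0.176. The call was also lost without WT_OL replicate 1 or any WT_Basal library (adjusted p 0.0575 to 0.124). The other alpha2delta genes were not called.

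Of the sodium channel genes only Scn2b was called, under the fit of all 18 libraries. Scn2b (chr9:45117782-45130070, plus strand of GRCm38), whose product binds the alpha subunit through a disulfide bond, was 249, 276 and 245 CPM in WT_Basal and 224, 229 and 236 CPM in KO_Basal. It was 329, 317 and 337 CPM in KO_OL, 354, 322 and 315 CPM in WT_RL and 311, 333 and 336 CPM in KO_RL, so that these 9 mice lay above all 6 untrained mice. WT_OL mice had 277, 226 and 309 CPM, and WT_OL replicate 2 lay among the untrained mice. The log2 difference was 0.51 ± 0.0919 in KO_OL (adjusted p = 0.00109), 0.36 in WT_RL (0.0147) and 0.51 in KO_RL (0.00116). In WT_OL it was 0.067 ± 0.0919 and was not called. The WT_RL call was lost without WT_Basal replicate 1 or 3 or WT_RL replicate 1 (adjusted p 0.057 to 0.0682). None of the alpha subunits was called in any of the 4 comparisons, with log2 differences from -0.53 for Scn9a in WT_OL to 0.37 for Scn8a in KO_RL among the 6 reported here. Scn4b, the beta subunit of resurgent current, varied 9.79 times between libraries, from 19.2 to 188 CPM, with no call.

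Hcn2 (chr10:79716634-79736108, plus strand of GRCm38) encodes the HCN channel with strong cAMP gating. Its CPM was 81.8, 89.99 and 81.7 in WT_Basal and 81.1, 101 and 90.8 in KO_Basal. It was 101, 122 and 107 in WT_OL and 115, 113 and 121 in KO_OL. It was 109, 130 and 125 in WT_RL and 125, 108 and 112 in KO_RL. The 6 untrained mice reached 101.38 CPM and the 12 trained mice began at 101.40 CPM, so the groups did not overlap, by the margin of 1 library on either side. The share of all genes with such a split was not counted. In single comparisons, 28.3% to 48.8% of all genes had groups without overlap. The log2 difference was 0.37 ± 0.0933 after original learning in WT mice (adjusted p = 0.0192) and 0.35 in KO mice (0.0121), and after reversal learning 0.51 in WT mice (0.00212) and 0.34 in KO mice (0.0158). Leaving out WT_Basal replicate 1 or 3 or WT_OL replicate 2 gave adjusted p of 0.0765 to 0.0832 in WT_OL. Leaving out KO_Basal replicate 1 or KO_OL replicate 3 gave 0.0522 to 0.0717 in KO_OL, and leaving out KO_Basal replicate 1 or KO_RL replicate 1 gave 0.0737 to 0.094 in KO_RL. Hcn3 and Hcn4 were not called.

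**Figure D3:**
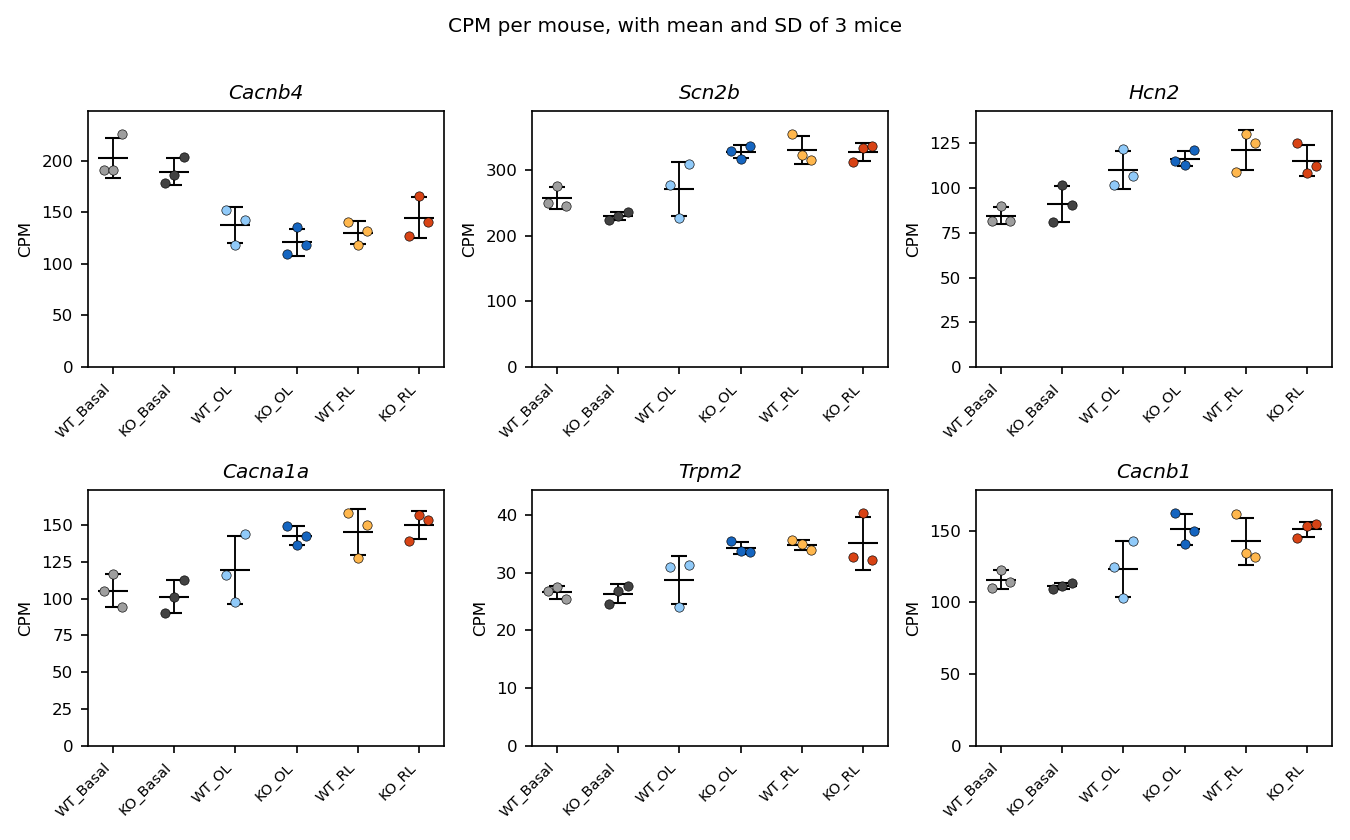
CPM of 6 genes in each mouse of the 6 groups; points are mice, bars are the mean and SD of 3 mice, and axes start at 0. Cacnb4 falls from 178 to 225 CPM in untrained mice to 109 to 166 CPM in trained mice, and the WT_OL points of Scn2b, Cacna1a and Cacnb1 spread widest.

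In the TRP group, Trpm2, a cation channel gated by ADP-ribose and oxidative stress, was higher in KO_OL (log2 difference 0.37 ± 0.0987, adjusted p = 0.014), WT_RL (0.38, adjusted p = 0.0176) and KO_RL (0.39, adjusted p = 0.00933). The 6 untrained mice had 24.5 to 27.7 CPM and the 12 trained mice 24.0 to 40.2 CPM, of which WT_OL replicate 2 was the lowest. Its KO_OL call was lost without KO_Basal replicate 1 (adjusted p = 0.0671) or KO_OL replicate 1 (0.0553), its WT_RL call without WT_Basal replicate 1 (0.0541) or 3 (0.0734), and its KO_RL call without KO_Basal replicate 1 (0.0518) or KO_RL replicate 2 (0.0513). Trpm4, a calcium-activated cation channel, was 11.1, 12.1 and 10.999 CPM in KO_Basal and 8.53, 8.09 and 8.36 CPM in KO_OL (-0.41 ± 0.126, adjusted p = 0.0278), and its call was lost without any library of these groups except KO_Basal replicate 3 (adjusted p 0.0602 to 0.0944). Trpm6, a magnesium channel at 14 to 37 reads per library, was 0.922, 0.760 and 1.14 CPM in KO_Basal and 0.516, 0.428 and 0.513 CPM in KO_RL (-0.38 ± 0.121, adjusted p = 0.0326). Its call was lost without any library of these groups except KO_Basal replicate 2 (adjusted p 0.0639 to 0.114).

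Trpc6 was 21.2, 24.0 and 19.3 CPM in WT_Basal and 13.7, 11.9 and 16.996 CPM in WT_OL (-0.58 ± 0.164, adjusted p = 0.0368), and the call was lost without any 1 of these libraries except WT_OL replicate 3 (adjusted p 0.0624 to 0.137). Trpv2 was 13.5, 13.4 and 14.5 CPM in KO_Basal and 19.6, 16.9 and 18.1 CPM in KO_OL (0.37 ± 0.0857, adjusted p = 0.00531). Trpc4ap was 155, 158 and 156 CPM in KO_Basal against 210, 192 and 195 CPM in KO_OL and 198, 197 and 190 CPM in KO_RL. It was 150, 180 and 164 CPM in WT_Basal against 202, 205 and 196 CPM in WT_RL. None of these 3 pairs overlapped, which held for 48.8%, 45.3% and 34.3% of all genes. The log2 differences were 0.34 ± 0.0707 (adjusted p = 0.00266), 0.31 (0.00482) and 0.29 (0.0118). The WT_RL difference was 0.23 without WT_Basal replicate 1 (adjusted p = 0.0709).

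Trpv4 showed the largest difference among members, 2.28 ± 0.622 in KO_OL (adjusted p = 0.0148) and 1.95 in KO_RL (adjusted p = 0.033). It encodes an osmosensitive channel that is abundant in choroid plexus epithelium. Its CPM was 0.763, 2.5004 and 1.59 in KO_Basal, 8.68, 10.9 and 14.8 in KO_OL and 18.4, 4.64 and 7.34 in KO_RL. WT_Basal mice had 6.06, 3.40 and 11.1 CPM, WT_OL mice 8.57, 8.31 and 6.03 CPM, and WT_RL mice 1.59, 3.53 and 23.8 CPM. The lowest of these, that of WT_RL replicate 1, lay within the range of KO_Basal. The summed level of 16 choroid plexus markers, all of them detected, was 257 to 1186 CPM in KO_Basal against 3759 to 7158 CPM in KO_OL, 2189 to 7897 CPM in KO_RL, 1512 to 6640 CPM in WT_Basal, 3241 to 5023 CPM in WT_OL and 254 to 13046 CPM in WT_RL.

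Over the 18 libraries Trpv4 followed that sum with Pearson's r = 0.963 and Spearman's rho = 0.9752 (permutation p = 1e-05 for both, the lowest value 100000 permutations allow, and adjusted p = 0.000235 over 47 members). Without the 2 libraries farthest from the median r was 0.959, and with group means removed it was 0.954. Trpm3 gave r = 0.887 and rho = 0.907 with the same permutation and adjusted p, r = 0.887 without the 2 libraries and r = 0.916 with group means removed. No other member of the 47 passed in both measures. With the marker level as a covariate, the Trpv4 difference was 0.20 in KO_OL (adjusted p = 0.636) and 0.064 in KO_RL (adjusted p = 0.889). Without KO_Basal replicate 1 or KO_OL replicate 3, the KO_OL value was 2.02 or 2.09 (adjusted p 0.0656 and 0.0596). Without KO_Basal replicate 1 or 3 or KO_RL replicate 1 or 3, the KO_RL value was 1.44 to 2.06 (adjusted p 0.0642 to 0.142). Hcn2 also lost its KO_OL and KO_RL calls with this covariate (0.22 and 0.21, adjusted p = 0.210 and 0.195), and Cacnb4 its KO_RL call (-0.35, adjusted p = 0.117). Over all genes calls went from 1714 higher and 1886 lower to 1262 and 1384 in KO_OL. In KO_RL they went from 1776 and 1836 to 1367 and 1359. The marker level of KO_Basal did not overlap that of KO_OL or KO_RL, so a lost call cannot be assigned to the marker level.

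**Figure D4:**
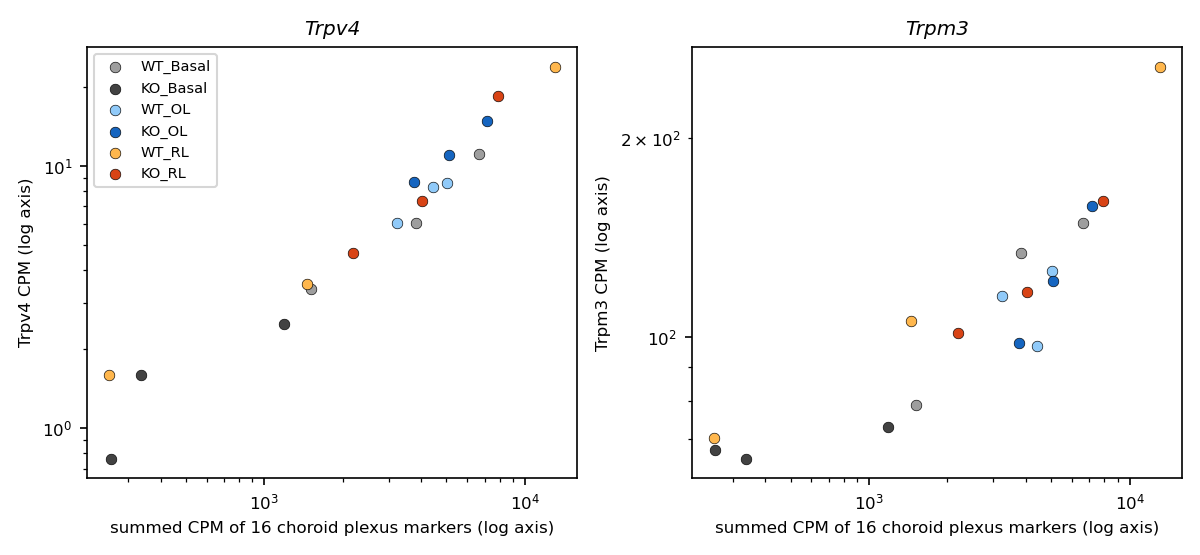
CPM of Trpv4 and Trpm3 against the summed CPM of 16 choroid plexus markers in 18 libraries, on log axes, coloured by group. Trpv4 runs from 0.763 to 23.8 CPM along the marker sum, and the 3 KO_Basal libraries and WT_RL replicate 1 lie at the lower left.

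WT and KO training comparisons share no libraries, but they share the estimate of each gene's spread, so their calls are not independent. Of the 6 members called in WT_RL, 6 were called in the same direction in KO_RL, where 11 were called, which is 100% and 54.5% of each list. For all genes, 71.5% of the WT_RL calls and 47.7% of the KO_RL calls were shared. For original learning, Hcn2 and Cacnb4 were shared, 50% of 4 in WT_OL and 18.2% of 11 in KO_OL, against 67.7% and 27.4% for all genes. No member and no other gene was called in opposite directions in these pairs. The OL and RL comparisons of a genotype share their Basal libraries and are given side by side only.

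Changes of the members followed the base composition of their transcripts. Spearman's rho between GC content of the longest transcript and the log2 difference over the 47 members was 0.71 and 0.47 for original learning in WT and KO mice, and 0.59 and 0.36 for reversal learning. Over 15224 genes these were 0.58, 0.40, 0.44 and 0.35, as a description over genes that share their libraries. Hcn2 has 65.4% G or C, Cacnb1 59.7%, Cacna1i 59.3% and Cacna1a 58.4%, against 40.5% in Cacnb4 and a median of 51.2% among members. When each library was corrected for GC content and transcript length, Scn2b, Trpc4ap and Cacnb4 stayed called in KO_OL, WT_RL and KO_RL, with Scn2b at 0.39, 0.26 and 0.37 (adjusted p = 0.00213, 0.0295 and 0.00319) and Cacnb4 at -0.49, -0.46 and -0.33 (adjusted p = 0.00111, 0.00238 and 0.016). Cacnb4 in WT_OL was then -0.29 with an adjusted p of 0.0528. Hcn2 stayed called in WT_RL (0.29, adjusted p = 0.0255) and fell to between 0.069 and 0.10 elsewhere (adjusted p 0.426 to 0.576). Cacna1a, Cacna1i, Cacna1h, Cacnb1 and Trpm2 lost every call, with values of 0.01 to 0.23. In all, 0 of 4 and 6 of 11 calls were kept for original learning in WT and KO mice, and 4 of 6 and 4 of 11 for reversal learning. Some lost calls kept most of their size, such as Trpc6 in WT_OL (-0.50, adjusted p = 0.0989) and Trpv4 in KO_RL (1.77, adjusted p = 0.0752). Calls were also gained, for Cacnb2 in KO_OL (0.46, adjusted p = 0.0179, against 0.16 as deposited) and Trpm4 in KO_RL (-0.54, adjusted p = 0.0139, against -0.32). What part of the differences follows from GC content of the fragments sequenced was not tested.

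**Figure D5:**
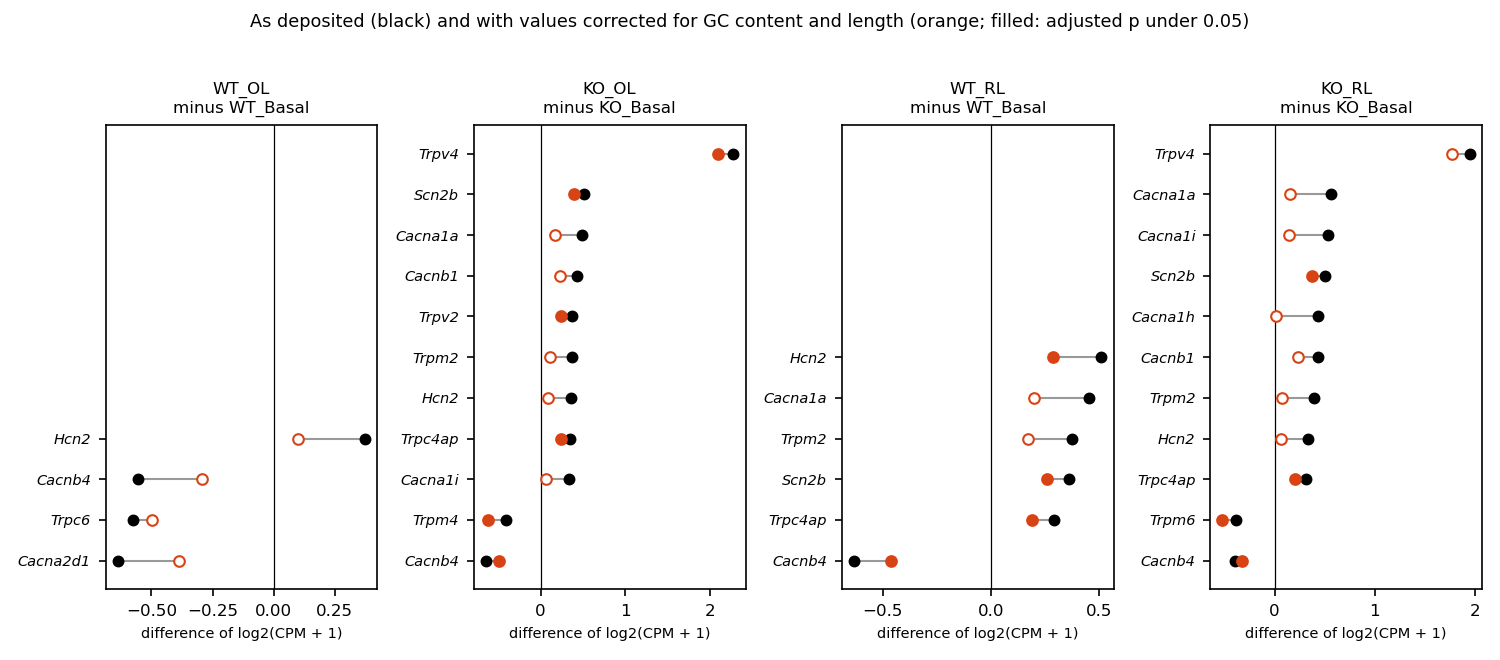
Log2 differences of the called members, as deposited (black) and after correction of each library for GC content and transcript length (orange, filled where the adjusted p was under 0.05), in 4 panels with their own axes. All orange points lie on the same side of 0 as the black ones, and most lie closer to 0.

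Between RL and OL mice of a genotype and between genotypes no member was called with limma on equally weighted libraries, and voom on recovered reads also called 0. With library weights limma called 3 members between WT_RL and WT_OL, 1 between KO_RL and KO_OL and 20 between KO_OL and WT_OL. Of all 15329 genes, the weighted fit called 365 higher and 232 lower, 89 and 38, and 2282 and 1908, in this order. Of all genes, 0.261% were called between WT_RL and WT_OL, where 8 members (17.02%, all genes 16.35%) had an unadjusted p under 0.05. Scn3b had the smallest p, at 259, 194 and 325 CPM in WT_OL and 385, 348 and 340 CPM in WT_RL (0.49 ± 0.148, adjusted p = 0.164). Between KO_RL and KO_OL the share of all genes called was 0.0196%. There 4 members (8.51%, all genes 4.81%) had an unadjusted p under 0.05, and Trpv2 had the smallest (-0.21 ± 0.0857, adjusted p = 0.938). The lowest Scn3b value of all 18 libraries, 194 CPM, was that of WT_OL replicate 2, and 12 members were called between WT_RL and WT_OL without WT_OL replicate 3. Calls over all genes were not counted in that fit.

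Between KO_Basal and WT_Basal, the comparison that asks what loss of Ccny changes without training, 0.0196% of all genes were called. An unadjusted p under 0.05 was found for 3 members (6.38%, all genes 3.999%). Trpv4 led them with -1.52 ± 0.622 (adjusted p = 0.994), and with the choroid plexus marker level as a covariate its difference was 0.19. The 95% interval of the difference was -0.34 to 0.15 for Cacnb4, -0.095 to 0.30 for Hcn2, -0.35 to 0.037 for Scn2b and -0.60 to 0.36 for Scn2a1, with 3 mice per group. Between KO_OL and WT_OL, 0.0652% of all genes were called, while 17 of 47 members (36.2%) had an unadjusted p under 0.05, against 18.03% of all genes. Of these 17, 15 were higher in KO_OL, and WT_OL held the library that stood apart. Trpm4 had the smallest p (-0.42 ± 0.126, adjusted p = 0.159), and 14 members were called without WT_OL replicate 3 but 0 without WT_OL replicate 2. These fits were not counted over all genes.

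Between KO_RL and WT_RL, 0% of all genes were called, and 1 member (2.13%, all genes 4.93%) had an unadjusted p under 0.05. This was Scn9a (0.50 ± 0.216, adjusted p = 0.956). Over the 3 training states pooled, 0.0326% of all genes were called, and 6 members (12.8%, all genes 8.36%) had an unadjusted p under 0.05. Scn9a, a sodium channel best known from sensory neurons, led these members with 0.49 ± 0.125 (adjusted p = 0.258). Its CPM was 3.06, 1.998 and 2.29 in WT_Basal, 4.45, 2.18 and 4.26 in KO_Basal, 1.69, 0.831 and 1.69 in WT_OL, 2.15, 2.16 and 3.45 in KO_OL, 1.45, 1.19 and 1.91 in WT_RL and 2.88, 2.75 and 2.05 in KO_RL. Every KO mouse lay above every WT mouse in the OL and RL states, and the mice overlapped without training. Genotypes did not overlap, in either direction, for 16.5% of all genes in the OL state and 8.18% in the RL state.

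The change upon training was also compared between genotypes. For the change to OL 0% of all genes were called, and 6 members (12.8%, all genes 12.4%) had an unadjusted p under 0.05. Scn2b led these members and rose by 0.44 ± 0.130 more in KO mice (adjusted p = 0.388). Without WT_OL replicate 3, 5 members were called, and calls over all genes were not counted. For the change to RL 0% of all genes were called. There 2 members (4.26%, all genes 4.99%) had an unadjusted p under 0.05, led by Trpv4 (2.07 ± 0.880, adjusted p = 0.908). The interval of this difference in the change to RL was -0.11 to 0.59 for Cacnb4, -0.45 to 0.10 for Hcn2 and -0.13 to 0.42 for Scn2b. A difference between WT and KO mice in the response of these channel genes was not shown, and with intervals of this width the responses are not shown to be alike either.

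Genes whose products bind, modify or accompany the channels were read from lists of 66 genes, of which 61 were listed in the data. In KO_OL 11 of 61 were higher and 5 lower (11.2% and 12.3% of all genes), in KO_RL 15 and 3 (11.6% and 12%), in WT_RL 6 and 4 (8.28% and 7.42%) and in WT_OL 1 and 4 (3.88% and 5.62%). There were 0 in the other 8 comparisons by limma. An unadjusted p under 0.05 was found there for 3 to 13 of the 61, against 3.999% to 18.03% of all genes. Akap7, an anchoring protein for protein kinase A at calcium channels, was lower in all 4, at 38.5 to 47.1 CPM in untrained and 23.1 to 32.9 CPM in trained mice (-0.33 and -0.74 for original learning in WT and KO mice, -0.50 and -0.67 for reversal learning; adjusted p 0.000105 to 0.0435). Fgf12, an intracellular FGF that binds sodium channels, was lower in KO_OL, WT_RL and KO_RL (-0.48, -0.42 and -0.53; adjusted p 0.00675, 0.0219 and 0.00402). Calm2, which encodes calmodulin, was lower in the same 3 comparisons (-0.35, -0.37 and -0.43; adjusted p 0.0188, 0.022 and 0.00591). Rem2, an RGK GTPase that inhibits calcium channels, was higher in KO_OL (0.56, adjusted p = 0.00689) and KO_RL (0.77, adjusted p = 0.000815). Itpr1, the endoplasmic calcium release channel, was higher in KO_RL (0.50, adjusted p = 0.00245), and Cacng2, the AMPA receptor auxiliary subunit stargazin, was lower in WT_OL (-0.46, adjusted p = 0.00871).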

How the data were processed

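Hippocampal RNA of 18 mice was sequenced, 1 library per mouse and 3 per group, as assigned by the labels. Per the submitters' processing notes and the methods of the study, the authors prepared stranded mRNA libraries, aligned the reads to mm10 with STAR 2.5.1, counted them on genes with STAR, normalized the counts by the TMM method of edgeR 3.12.1 in R 3.3.0 and deposited log2 values of CPM for 15329 genes. The deposited log2 values are log2(CPM + 1), since 100% of them gave whole reads (tolerance 0.001 reads), whereas the methods describe CPM floored at 1; that scale was an alternative. The planned test assumed floored values and was applied to the values as deposited.

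Members and lists were chosen with earlier results of these data known. The log2 values were fitted with limma 3.58.1 in R 4.3.3 (6 group means over 18 libraries, 12 residual degrees of freedom, eBayes with trend), two-sided, with Benjamini-Hochberg adjustment over all 15329 genes and a threshold of 0.05, in 12 comparisons. A gene is called where its adjusted p was under 0.05. Recovery of planted changes was tested on simulated data. Per-mouse values are given for members called in a comparison (at most the 3 with the smallest p in each direction) and for the member with the smallest p where none was called, and partner genes by the same rule; Cacnb1, Trpm2 and Cacna1h and the within-library ratio were added with their values known. GENCODE M21 on GRCm38, the build also called mm10, gave positions and the GC content and length of transcripts, and 99.3% of genes were matched. Alternatives changed the scale, pseudocount, filter, libraries fitted, variance moderation, library weights, replicate block, normalization, voom on recovered reads, GC content and length, and each replicate left out; the choroid plexus covariate was added after seeing the data. An exact permutation test of 3 mice against 3 cannot give a p below 0.1. Python 3.11.15 with numpy, pandas, scipy and matplotlib made the tables and figures. Pairs of replicates differed by 8.76 to 109 times counting noise per gene, so no library was a copy. Depth limits the precision of the members with the fewest reads, such as Trpm6 and Trpv6. Single values of 3 members are not reported here, while counts and medians over members include them.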

Additional observations from a re-analysis of the deposited data

How the results depend on the processing

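The count of called members in WT_OL against WT_Basal, 4 as reported, was 2 with CPM raised to at least 1, 11 with library weights, and 0 both with the GC content and length correction and with the libraries of the groups compared only. Over all genes these settings called 696 higher and 938 lower, 2328 and 2544, 340 and 264, and 21 and 53, in this order. Leaving out 1 library gave 1 to 12 called members, the highest without WT_OL replicate 3. For fits with 1 library left out, here and below, calls over all genes were not counted. In KO_OL against KO_Basal, 11 as reported, the count was 20 with library weights, 7 with the GC correction and 21 with the groups compared only, and 6 to 10 with 1 library left out. Over all genes library weights, the GC correction and the groups compared only called 3024 higher and 3086 lower, 1326 and 1064, and 2714 and 2575. In KO_RL against KO_Basal, 11 as reported, the count of members was 23, 5 and 18 under the same settings and 6 to 9 with 1 library left out. Over all genes these settings called 3479 higher and 3511 lower, 1075 and 838, and 2333 and 2093. In WT_RL against WT_Basal, 6 as reported, the count of members was 2 to 8 with 1 library left out. Library weights also gave 3 calls between WT_RL and WT_OL, 1 between KO_RL and KO_OL, 20 between KO_OL and WT_OL and 7 for the difference in the change to OL, each 0 as reported. Over all genes library weights called 365 higher and 232 lower, 89 and 38, 2282 and 1908, and 1007 and 1049, in this order. Leaving out 1 library gave 0 to 12 called members between WT_RL and WT_OL. It gave 0 to 14 between KO_OL and WT_OL and 0 to 5 for the difference in the change to OL. The weights of WT_OL replicates 1, 2 and 3 were 7.03, 0.208 and 0.381, so the weighted WT_OL mean rested mostly on replicate 1. The cause was not tested.

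Of 575 alternative values of the 32 called differences, 471 kept their direction and call, 104 kept the direction but not the call, and 0 reversed. The calls of Cacnb4, Scn2b, Trpc4ap and Trpv2 in KO_OL, of Cacnb4 and Hcn2 in WT_RL and of Scn2b and Trpc4ap in KO_RL held under every alternative run. For Trpm6 in KO_RL, raising CPM to at least 1 gave -0.063 (adjusted p = 0.442). Libraries with the same replicate number did not deviate together (correlation -0.639 to 0.548, median -0.0217, against a median of 0.0295 for different numbers). With a replicate block the counts were 3 in WT_OL, 10 in KO_OL, 6 in WT_RL, 11 in KO_RL and 0 elsewhere. Over all genes the block gave 571 higher and 806 lower, 1722 and 1898, 1243 and 1126, and 1759 and 1849, in this order. Elsewhere it gave at most 17 higher and 20 lower. Trpm6, at 14 to 37 reads per library, and Trpv6, at 13 to 67, are limited by counting.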
